A study of Homo sapiens with 3 samples.

Results

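The genes described here encode the nuclear subunits of oxidative phosphorylation. They were chosen by name (gene symbols that begin NDUFA, NDUFB, NDUFC, NDUFS or NDUFV with a number, SDHA to SDHD, UQCR, CYC1, COX4 to COX8 with a letter A, B or C, and ATP5F, ATP5M, ATP5P or ATP5I), with at least 1 protein-coding transcript and a place outside the mitochondrial chromosome. Of 60506 genes on chromosomes 88 met these terms, and 82 of them had a mean level of at least 1 FPKM (fragments per kilobase of transcript, scaled to the depth of the library and summed over the transcripts of a gene) and are described as members. Complex I had 39 of its 39 genes above that level, complex II 4 of 4, complex III 10 of 10, complex IV 10 of 15 and complex V 19 of 20. In all, 13923 genes of the series passed the same level and form the background.

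RNA came from HaCaT, an immortalized line of human skin keratinocytes, in 3 libraries. Cells received SRSF5 siRNA No.1 (here siRNA 1), SRSF5 siRNA No.2 (siRNA 2) or a control siRNA, each at a final 10 nM with the lipid reagent RNAiMAX. The siRNAs deplete SRSF5, an RNA-binding SR protein known for its role in splicing, and each stands for 1 library with no repeat. No time after transfection is given in the sources used here. Differences between the siRNAs and differences between cultures cannot be told apart. In this bulk RNA, fewer cells of a kind and less RNA per cell cannot be told apart either.

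Oxidative phosphorylation makes most ATP of a respiring cell in the inner mitochondrial membrane. Complexes I and II pass electrons from NADH and succinate to ubiquinone, complex III passes them to cytochrome c, and complex IV passes them to oxygen. Complexes I, III and IV pump protons, and complex V, the ATP synthase, uses their return to make ATP. All complexes but II join subunits made inside mitochondria with subunits made in the cytosol from nuclear genes, so 2 genomes must be expressed in step. The nuclear genes are classic targets of the transcription factors NRF1, GABP (an ETS family factor) and YY1.

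Promoters are shown for the members that stood lowest, on average over both siRNAs, in complexes I, IV and V, so that their sequence can be read beside their values. UQCRH, a member that was above the control with both siRNAs, was added as a contrast after its values were seen. The 300 bases, 250 before and 50 after the annotated start, were taken from RefSeq on GRCh38.p14 and run 5′ to 3′ on the strand of the gene. Capitals mark any match to 4 motifs on either strand. The NRF1 motif starts with GCGCA, goes on with a base of any kind, and ends with GCGC. The ETS motif was searched as CCGGAAG, the YY1 motif as AAGATGGC and the TATA box as TATAAA. The windows lie at chr19:8321326-8321625 (NDUFA7, minus strand), chr5:86617691-86617990 (COX7C, plus strand), chr17:48892537-48892836 (ATP5MC1, plus strand) and chr1:46303448-46303747 (UQCRH, plus strand).
NDUFA7: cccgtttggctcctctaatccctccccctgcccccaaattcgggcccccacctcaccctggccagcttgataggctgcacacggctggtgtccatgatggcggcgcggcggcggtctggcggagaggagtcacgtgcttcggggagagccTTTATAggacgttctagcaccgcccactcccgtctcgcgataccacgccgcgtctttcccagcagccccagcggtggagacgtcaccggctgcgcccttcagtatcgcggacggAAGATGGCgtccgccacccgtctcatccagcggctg
COX7C: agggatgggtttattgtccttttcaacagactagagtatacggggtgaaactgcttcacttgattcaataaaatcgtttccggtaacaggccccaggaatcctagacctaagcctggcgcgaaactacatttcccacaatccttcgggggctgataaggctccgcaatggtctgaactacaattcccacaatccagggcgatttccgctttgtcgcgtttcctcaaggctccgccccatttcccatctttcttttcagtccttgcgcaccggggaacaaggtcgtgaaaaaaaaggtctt
ATP5MC1: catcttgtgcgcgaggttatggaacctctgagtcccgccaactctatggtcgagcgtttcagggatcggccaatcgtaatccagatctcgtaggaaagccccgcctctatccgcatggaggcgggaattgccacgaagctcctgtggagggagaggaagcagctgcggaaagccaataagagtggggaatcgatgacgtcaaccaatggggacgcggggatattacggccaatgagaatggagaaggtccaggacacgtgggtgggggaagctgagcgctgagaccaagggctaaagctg
UQCRH: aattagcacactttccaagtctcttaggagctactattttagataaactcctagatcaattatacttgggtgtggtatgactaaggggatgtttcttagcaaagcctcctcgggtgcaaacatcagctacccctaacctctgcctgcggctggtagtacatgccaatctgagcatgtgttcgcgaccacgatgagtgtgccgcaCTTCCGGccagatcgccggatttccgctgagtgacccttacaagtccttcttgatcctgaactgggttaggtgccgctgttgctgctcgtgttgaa
The NDUFA7 window held 1 YY1 and 1 TATA match, the UQCRH window 1 ETS match, and the COX7C and ATP5MC1 windows none of these letters. RefSeq entries were matched for 68 of the 82 members, in 83 windows. The NRF1 letters were in 16 of them (19.3%, against 5.78% of 35116 windows of all genes), the ETS letters in 21 (25.3%, against 10.3%), the YY1 letters in 13 (15.7%, against 2.89%) and the TATA letters in 6 (7.23%, against 11.5%). These shares describe letters in windows and not binding, and in 13 windows of all genes matches of different motifs overlapped.

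SRSF5 itself was checked first. Its summed level was 44.3 FPKM with siRNA 1 and 18.7 FPKM with siRNA 2, against 94.1 FPKM in the control, or 47.1% and 19.8% of the control. The library of siRNA 2 was also the one with the smallest share of bases on the mitochondrial chromosome, 10.2%, against 15.1% with siRNA 1 and 14.0% in the control. Depth ran from 15864985 to 18323681 read equivalents (100 overlapping bases, counted on the transcript with most bases of each gene), lowest with siRNA 2. Keratinocyte markers were present, 10 of 10 with a mean of at least 1 FPKM and summed levels of 6293 FPKM with siRNA 1, 10055 FPKM with siRNA 2 and 5245 FPKM in the control. Of the markers of other cell types, 1 of 7 for fibroblasts, 0 of 5 for melanocytes (3 listed at 0), 1 of 4 for leukocytes, 1 of 3 for endothelium and 0 of 3 for skeletal muscle reached that mean. Their summed levels were 5.63, 0.371, 19.9, 1.91 and 0.199 FPKM with siRNA 1, 6.44, 0.609, 18.1, 2.44 and 0.217 FPKM with siRNA 2, and 2.92, 0.726, 29.1, 3.71 and 0.112 FPKM in the control. The part of knockdown depth, of the mitochondrial share and of these markers in the values below was not tested.

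Levels can be compared between genes only per length and on 1 transcript each, so the coding transcript with the most bases was used for this purpose. COX6A1, the common form of a complex IV subunit, had 118 FPKM with siRNA 1 and 78.0 FPKM with siRNA 2, against 119 FPKM in the control. NDUFS5, an accessory subunit of complex I, had 101 FPKM with siRNA 1 and 106 FPKM with siRNA 2, against 117 FPKM in the control. These genes held the top of the order in the control, and NDUFS5 was above COX6A1 with siRNA 2. COX8A (82.6 and 69.1 FPKM, against 102 FPKM in the control) and COX5B (70.0 and 69.4 FPKM, against 98.0 FPKM) followed, both subunits of complex IV.
At the low end, NDUFA3 had 0.184 FPKM with siRNA 1 and 0.146 FPKM with siRNA 2, against 0.202 FPKM in the control, and NDUFA4L2, a paralog of NDUFA4 known to respond to hypoxia, had 0.172, 0.243 and 0.284 FPKM in the same order. The median level per transcript was highest in complex IV, with 24.7 FPKM for siRNA 1 and 20.3 FPKM for siRNA 2, against 27.1 FPKM in the control. It was lowest in complex I, with 5.54 and 5.00 FPKM, against 6.30 FPKM in the control. Complex III stood at 13.1 and 10.1 FPKM (control 15.5 FPKM), complex II at 8.65 and 9.46 FPKM (control 9.94 FPKM) and complex V at 7.98 and 7.41 FPKM (control 10.2 FPKM). Each level depends on which isoform holds the most bases: for COX7C that isoform is 1584 bases long with 50.2 FPKM in the control, while a coding isoform of 347 bases had 227 FPKM there.

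**Figure D1:**
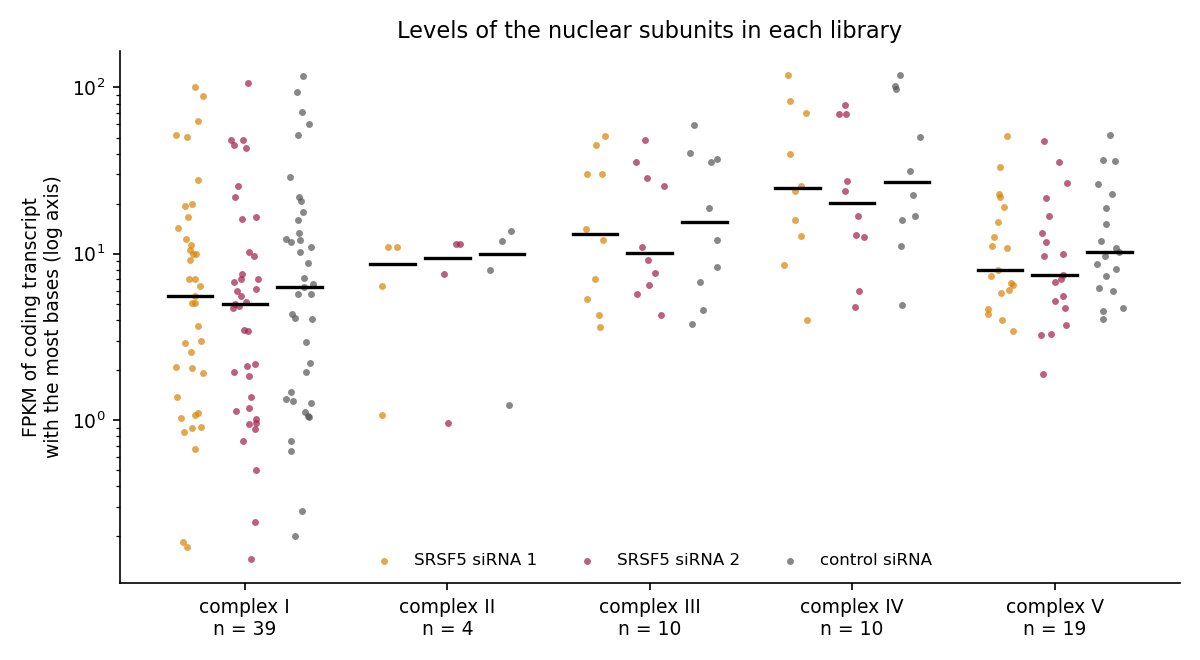
FPKM of the coding transcript with the most bases (log axis) for the 82 members by complex, with 1 point per gene for siRNA 1, siRNA 2 and control and a black line at the median. Complex IV has the highest median in each library (24.7, 20.3 and 27.1 FPKM) and complex I the widest span.

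The 6 genes left out by the level minimum were mostly tissue-restricted paralogs. COX7A1, the form of heart and skeletal muscle, and COX8C, a testis form, were listed at 0 in the 3 libraries. COX6A2, another muscle form, was listed at 0.0326 FPKM with siRNA 1 and at 0 in the other libraries, and COX7B2 at 0.0195 FPKM in the control and 0 with either siRNA. ATP5MGL had 0.069 and 0.101 FPKM with siRNA 1 and siRNA 2, against 0.192 FPKM in the control. COX6B2, a testis form, was just under the minimum, with a mean of 0.739 FPKM (0.205 and 1.92 FPKM with siRNA 1 and siRNA 2, against 0.0908 FPKM in the control) that rests on 1.06, 14.7 and 1.04 read equivalents. NDUFA4L2 was just above it, with a mean of 1.80 FPKM (1.38 and 2.17 FPKM with the siRNAs, against 1.84 FPKM in the control). Of these paralog pairs in complex IV, the widely expressed forms COX6A1, COX6B1, COX7A2, COX7B and COX8A were the ones above the minimum.

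Most members were somewhat below the control with both siRNAs, and the difference from the control was small for most of them. Ratios from here on compare summed FPKM within a gene, as log2(FPKM + 1), a scale that shrinks the differences of genes at low levels. With both siRNAs 66 of 82 members (80.5%) were lower than the control by any amount, against 29.4% of all 13923 genes tested. By complex these were 29 of 39, 3 of 4, 7 of 10, 9 of 10 and 18 of 19, from I to V. Higher with both were 6 members (7.32%), against 30.1% of all genes, and 4 or 3 when all ratios were scaled to a median of 0 or to genes outside the mitochondrial chromosome. With siRNA 1, and likewise with siRNA 2, 71 members were lower (86.6%, against 53.4% of all genes with siRNA 1 and 46% with siRNA 2). The median log2 ratio of the members was -0.16 with siRNA 1 and -0.31 with siRNA 2, beside -0.02 and 0.05 over all genes tested. Both counts use the same control library, so a low or high control value for a gene enters both of its ratios.
At a larger size few members remained apart. No member was at least 1.5-fold lower with both siRNAs (0 of 82, against 1.47% of all genes) and none was at least 1.5-fold higher with both (0 of 82, against 3.19%). With the median ratio of all genes set to 0, and with scaling to the genes outside the mitochondrial chromosome, 1 member was lower with both. At least 1.5-fold lower with siRNA 1 alone were 4 members (4.88%, against 5.47% of all genes), a share near the background. With siRNA 2 there were 16 (19.5%, against 10.1%). No member was 1.5-fold higher with siRNA 1 (6.18% of all genes) or with siRNA 2 (13.2%).
limma on both siRNA libraries against the control called 0 of 82 members at a Benjamini-Hochberg adjusted p below 0.05, as it called 0 of all genes (0%). At an unadjusted p below 0.05 it gave 0 members, against 122 lower genes (0.876%) and 294 higher genes (2.11%). The smallest limma p of a member was 0.066, unadjusted, for ATP5MC1, and its Benjamini-Hochberg adjusted p was 1.00. The spread that limma used comes from the difference between the siRNAs, since the control is 1 library.

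**Figure D2:**
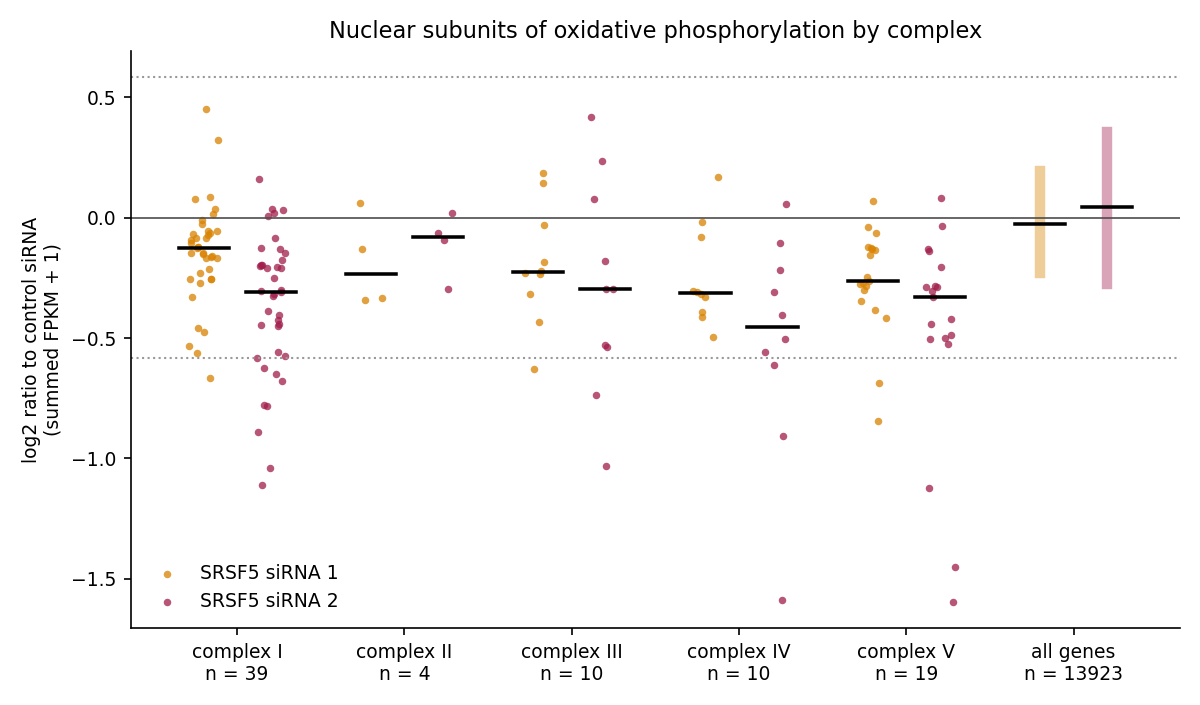
log2 ratio of summed FPKM (+ 1) to the control for each member, by complex, with 1 point per gene for siRNA 1 and siRNA 2, black lines at medians, dotted lines at 1.5-fold and bars for the middle 50% of all 13923 genes. Medians for siRNA 2 run from -0.08 in complex II to -0.45 in complex IV, and a few members of complexes I, III, IV and V lie below -1.

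Complex I takes electrons from NADH and is the largest of the 5, with a peripheral arm that holds the flavin and iron-sulfur clusters and a membrane arm that pumps protons. Its 39 members had a median log2 ratio of -0.13 with siRNA 1 and -0.31 with siRNA 2. At least 1.5-fold lower with siRNA 2 were 8 of them (20.5%, against 10.1% of all genes). Among the core subunits of the peripheral arm, NDUFV2, which carries a 2Fe-2S cluster at the NADH end, had 74.1 and 47.4 FPKM with siRNA 1 and siRNA 2, against 88.6 FPKM in the control (-0.26 and -0.89), past 1.5-fold with siRNA 2. Other core subunits were nearer the control. NDUFV1, the flavin-binding subunit, had 161 and 151 FPKM, against 175 FPKM in the control. NDUFS1 had 25.6 and 26.7 FPKM (control 30.7 FPKM), and NDUFS3 57.9 and 57.1 FPKM (control 68.1 FPKM). NDUFS7 had 30.2 and 20.8 FPKM (control 28.6 FPKM), and NDUFS8 118 and 81.3 FPKM (control 122 FPKM). NDUFS7 and NDUFS8, iron-sulfur subunits on the way to ubiquinone, were lower with siRNA 2 and near the control with siRNA 1.
Accessory subunits, which hold the complex together and stabilise it, gave the lowest values of complex I. NDUFA1, a small subunit anchored in the membrane (ENSG00000125356.7, chromosome X, 119871832 to 119876662, plus strand), had 88.6 FPKM with siRNA 1 and 43.3 FPKM with siRNA 2, against 94.6 FPKM in the control. The library of siRNA 2 stood alone here at 45.8% of the control, while siRNA 1 was at 93.7%. NDUFA7 (ENSG00000267855.5, chromosome 19, 8308768 to 8321396, minus strand) had 16.6 FPKM with siRNA 1 and 10.9 FPKM with siRNA 2, against 23.5 FPKM in the control. Its log2 ratios were -0.48 and -1.04 with counting errors of 0.21 and 0.25, since its transcript with most bases held 78.6, 49.2 and 114 read equivalents. The other accessory members past 1.5-fold with siRNA 2 were NDUFA12, NDUFA4, NDUFA6, NDUFB1 and NDUFB11, with log2 ratios of -0.65, -0.68, -0.78, -0.62 and -0.78, and of -0.17, -0.07, -0.27, -0.16 and -0.13 with siRNA 1. NDUFA4 is assigned here by name, although its protein is now counted as a subunit of complex IV.
At the top of complex I were NDUFC1, with 15.6 FPKM with siRNA 1 and 11.4 FPKM with siRNA 2, against 11.1 FPKM in the control, and NDUFB6, a membrane arm subunit, with 8.80 and 6.18 FPKM, against 6.83 FPKM in the control. The NDUFC1 ratio with siRNA 1, 0.45, had a counting error of 0.30. NDUFC2 and NDUFC2-KCTD14, a readthrough gene listed over the same exons, share reads and were at 89.7% and 89.2% of the control with siRNA 1 and 86.9% and 86.1% with siRNA 2.

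Complex II, succinate dehydrogenase, is also an enzyme of the tricarboxylic acid cycle and has no subunit from the mitochondrial genome. The median log2 ratio of its 4 genes was -0.23 with siRNA 1 and, nearest to 0 of the 5 complexes, -0.08 with siRNA 2. SDHA, the flavoprotein that oxidises succinate, had 216 FPKM with siRNA 1 and 226 FPKM with siRNA 2, against 237 FPKM in the control. SDHB, the iron-sulfur subunit, had 98.5 and 101 FPKM, against 124 FPKM in the control. It was the lowest of the 4 on the mean of both siRNAs (-0.32 ± 0.03, SD between the siRNAs, n = 2). That SD leaves out any variation of the control. With siRNA 1 SDHD (-0.342) was slightly below SDHB (-0.334). The membrane anchors SDHC and SDHD had 31.1 and 40.8 FPKM with siRNA 1 and 30.3 and 48.7 FPKM with siRNA 2, against 29.9 and 52.0 FPKM in the control. None of the 4 was 1.5-fold away with either siRNA. With 4 genes and 1 library per siRNA, a difference between complex II and the other complexes was not tested.

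Complex III hands electrons from ubiquinol to cytochrome c. Its 10 members had medians of -0.23 with siRNA 1 and -0.30 with siRNA 2. Of the subunits that carry redox centres, CYC1 (cytochrome c1) had 117 FPKM with siRNA 1 and 101 FPKM with siRNA 2, against 146 FPKM in the control. UQCRFS1, the Rieske iron-sulfur protein, had 30.2 and 28.7 FPKM, against 35.4 FPKM in the control. The large matrix-facing proteins differed from each other: UQCRC1 had 124 and 112 FPKM, against 127 FPKM in the control, while UQCRC2 had 71.1 and 89.6 FPKM, against 110 FPKM in the control. UQCRC2 was at least 1.5-fold lower with siRNA 1 (-0.63) but not with siRNA 2 (-0.30).
The small subunit UQCRQ (ENSG00000164405.11, chromosome 5, 132866630 to 132868847, plus strand), a neighbour of the quinone sites, was the lowest of the complex. It had 250 FPKM with siRNA 1 and 164 FPKM with siRNA 2, against 337 FPKM in the control (-0.43 and -1.03), so that the 3 libraries lay well apart from each other. UQCR10, another small subunit, had 128 and 90.0 FPKM, against 151 FPKM in the control. UQCRH, the hinge protein that helps dock cytochrome c, stood above the control, with 178 FPKM with siRNA 1 and 190 FPKM with siRNA 2, against 161 FPKM in the control (0.14 and 0.24, counting error 0.06 for each). UQCRHL, a near copy of UQCRH elsewhere on chromosome 1, had 5.36 and 6.49 FPKM, against 4.60 FPKM in the control. How reads that fit both copies were placed is not given in the sources used here, so their values are uncertain and not independent.

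Complex IV, cytochrome c oxidase, has its copper and heme centres in subunits from the mitochondrial genome, and the nuclear subunits surround them. Its 10 members had the lowest medians of the 5 complexes, -0.31 with siRNA 1 and -0.45 with siRNA 2. With the 5 genes near 0 counted too, the medians were -0.080 and -0.22. COX7C (ENSG00000127184.13, chromosome 5, 86617928 to 86620962, plus strand), a small membrane subunit, had 815 FPKM with siRNA 1 and 340 FPKM with siRNA 2, against 1026 FPKM in the control. The siRNA 2 library was at 33.2% of the control and the siRNA 1 library at 79.5%, and the log2 ratios of -0.33 and -1.59 had counting errors of 0.04 and 0.05. Over both siRNAs the mean was -0.96 ± 0.89 (SD, n = 2), a spread nearly as large as the mean. In the order of levels per transcript COX7C was 12th of 82 with siRNA 1 and 21st with siRNA 2, against 11th in the control.
COX7A2, the widely expressed form of the gene family that has COX7A1 in muscle, had 101 FPKM with siRNA 1 and 70.7 FPKM with siRNA 2, against 133 FPKM in the control (-0.39 and -0.91). Its relative COX7A2L, which acts in joining complexes III and IV into supercomplexes, had 41.4 and 48.1 FPKM, against 51.7 FPKM in the control. COX6A1 was 1.5-fold lower with siRNA 2 alone, with 267 FPKM with siRNA 1 and 176 FPKM with siRNA 2, against 270 FPKM in the control. COX5A and COX5B, which face the matrix, had the same ratio with both siRNAs, -0.31 and -0.31 for COX5A and -0.49 and -0.50 for COX5B. COX5B stood at 290 FPKM with siRNA 1 and 288 FPKM with siRNA 2, against 408 FPKM in the control. COX6B1, on the side of the intermembrane space, had 118 and 136 FPKM, against 158 FPKM in the control. COX6C was the highest of complex IV relative to the control, at 321 and 297 FPKM, against 285 FPKM in the control (0.17 and 0.06). COX7B and COX8A had ratios of -0.08 and -0.30 with siRNA 1 and -0.40 and -0.56 with siRNA 2. COX4I1, the main form of the largest nuclear subunit, is not matched by the name rule. It had 463 and 440 FPKM, against 558 FPKM in the control.

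Complex V has a catalytic F1 head, a ring of c subunits in the membrane and a peripheral stalk that joins them. Its 19 members had medians of -0.26 with siRNA 1 and -0.33 with siRNA 2, and 18 of them were below the control with both. In the F1 head, ATP5F1B, the catalytic beta subunit, had 701 FPKM with siRNA 1 and 655 FPKM with siRNA 2, against 721 FPKM in the control. ATP5F1A (alpha) had 222 and 196 FPKM, against 243 FPKM in the control, and ATP5F1C (gamma, the rotating shaft) 205 and 198 FPKM, against 249 FPKM in the control. ATP5F1D and ATP5F1E (delta and epsilon) had ratios of -0.13 and -0.25 with siRNA 1 and -0.28 and -0.44 with siRNA 2. ATP5IF1, the inhibitor that stops the enzyme from running backwards, had 102 and 92.2 FPKM, against 107 FPKM in the control.
The ring subunit c is encoded by 3 genes that give the same mature protein. ATP5MC1 (ENSG00000159199.14, chromosome 17, 48892765 to 48895871, plus strand) had 46.5 FPKM with siRNA 1 and 19.5 FPKM with siRNA 2, against 61.0 FPKM in the control (-0.38 and -1.60, counting errors 0.16 and 0.20). ATP5MC2 had 33.6 and 39.1 FPKM, against 42.9 FPKM in the control, and ATP5MC3 had 74.4 and 66.5 FPKM, against 81.4 FPKM in the control. With siRNA 2, ATP5MC1 was thus at 32.0% of the control where ATP5MC2 was at 91.1% and ATP5MC3 at 81.7%. That difference between the 3 genes has no replicate behind it and was not tested.
Among the membrane subunits beside the ring, ATP5MF (subunit f, ENSG00000241468.7, chromosome 7, 99448475 to 99466331, minus strand) had 221 FPKM with siRNA 1 and 97.2 FPKM with siRNA 2, against 267 FPKM in the control. ATP5MF-PTCD1, a readthrough gene over the same exons, had 22.9 and 12.2 FPKM, against 27.8 FPKM in the control. It shares reads with ATP5MF and is no second observation. ATP5ME (subunit e) had 104 and 120 FPKM, against 168 FPKM in the control (-0.69 and -0.49), while ATP5MG (subunit g) had 146 and 148 FPKM, against 139 FPKM in the control. In the peripheral stalk, ATP5PB (subunit b) had 86.1 FPKM with siRNA 1 and 127 FPKM with siRNA 2, against 155 FPKM in the control (-0.84 and -0.29). It was the lowest member of all with siRNA 1. ATP5PD (subunit d) was near the control, with 132 and 141 FPKM, against 144 FPKM in the control.

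The members furthest from the control were so with siRNA 2. At least 2-fold lower with siRNA 2 were 7 members (8.54%, against 2.83% of all genes): NDUFA1, NDUFA7, UQCRQ, COX7C, ATP5MC1, ATP5MF and ATP5MF-PTCD1. With siRNA 1 there were 0 (1.33% of all genes). No member was 2-fold higher with siRNA 1 (1.7% of all genes) or with siRNA 2 (4.5%). Without the readthrough gene ATP5MF-PTCD1 6 separate genes remain. With coding transcripts alone 5 members were 2-fold lower with siRNA 2, (6.10%, against 2.51% of all genes), and with the coding transcript of most bases alone 4 (4.88%, against 1.30%).
Set directly against each other, the siRNA 2 library was lower than the siRNA 1 library by any amount for 57 members (69.5%, against 44.2% of all genes). It was at least 1.5-fold below the siRNA 1 library for 10 members (12.2%, against 10.5% of all genes) and above it for 0 (13.7% of all genes). By 2-fold it was below for 4 members (4.88%, against 2.88%): NDUFA1, COX7C, ATP5MC1 and ATP5MF, with log2 ratios of siRNA 2 over siRNA 1 of -1.02, -1.26, -1.21 and -1.18. Next was ATP5MF-PTCD1 at -0.85. The median of all members for siRNA 2 over siRNA 1 was -0.13, beside 0.07 over all genes. The members lowest with siRNA 1 were not in this group. UQCRC2, ATP5ME and ATP5PB, at least 1.5-fold lower with siRNA 1, each had a higher level with siRNA 2 than with siRNA 1.

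**Figure D3:**
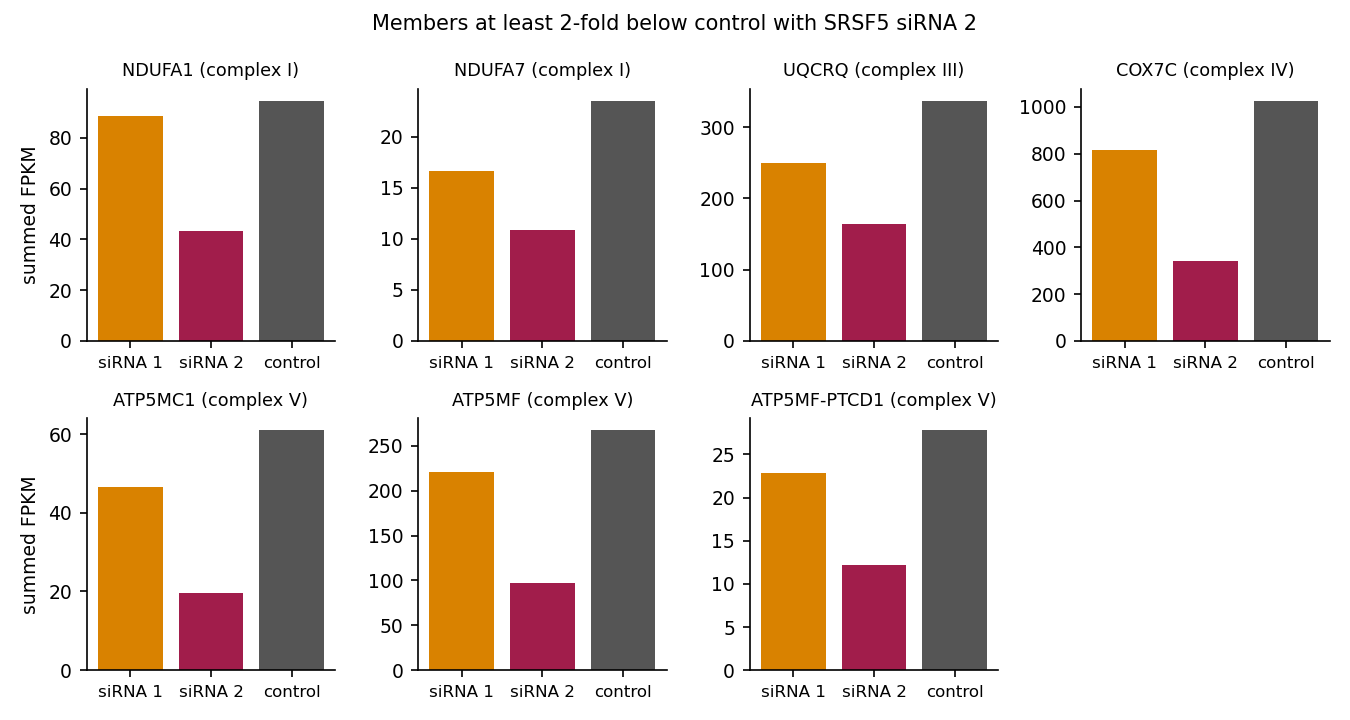
Summed FPKM (linear axis from 0, with its own scale in each panel) in the siRNA 1, siRNA 2 and control libraries for the 7 members at least 2-fold below the control with siRNA 2. The siRNA 1 bar lies between the siRNA 2 bar and the control in all 7 panels, and ATP5MF and ATP5MF-PTCD1 share reads.

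Isoforms were compared within these genes. COX7C has 7 listed transcripts, all lower than the control: at 79.1% to 79.7% of it with siRNA 1 and 33.0% to 33.7% with siRNA 2. For UQCRQ the 6 transcripts were at 73.7% to 74.8% with siRNA 1 and 48.5% to 49.6% with siRNA 2. ATP5MC1 (10 transcripts) ranged from 68.8% to 87.7% with siRNA 1 and 30.5% to 43.4% with siRNA 2, and ATP5MF (12 transcripts) from 81.4% to 85.1% and 34.3% to 41.1%. NDUFA7 (6 transcripts) ranged from 15.1% to 73.0% with siRNA 1 and 0% to 47.5% with siRNA 2. Its lowest values, 15.1% and 0%, come from NDUFA7-206 alone, a transcript near the floor. That transcript held 0.33 and 0 read equivalents with the siRNAs, against 2.31 in the control. ATP5MF-PTCD1 (3 transcripts) ranged more widely with siRNA 2, from 37.0% to 72.8%, against 80.3% to 88.4% with siRNA 1. NDUFA1 has 1 transcript. Since 1 base counts toward each transcript over it, the isoforms of a gene hold many of the same reads, and they are no independent observations.
SRSF5 acts in splicing, so the share of each transcript in the sum of its gene was compared too. Of 612 transcripts in 75 members with at least 5 FPKM in every library, 0 differed from the control by 10 points of share or more in the same direction with both siRNAs. By 10 points in either library it was 1, the coding transcript ATP5MF-PTCD1-201, at 17.4% of its gene with siRNA 1 and 26.9% with siRNA 2, against 16.2% in the control. ATP5MF-PTCD1-203, listed as a target of nonsense-mediated decay, was at 59.7% and 51.5%, against 61.2% in the control, and NDUFA2-203, listed as noncoding, at 20.2% and 31.2%, against 21.8% in the control. Summed over members, coding transcripts held 54.1% of FPKM with siRNA 1 and 53.8% with siRNA 2, against 53.3% in the control. Transcripts with a retained intron held 16.5% and 16.9%, against 16.2%, and those listed as targets of nonsense-mediated decay 8.54% and 9.47%, against 8.23%. Noncoding transcripts (lncRNA type) held 20.9% and 19.8%, against 22.2%. Because overlapping isoforms share reads, these shares respond weakly to a true change in splicing.

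A list of 24 central subunits was set beside the 58 remaining members. It held those with redox centres or catalytic sites, NDUFS3, and the rest of complex II and of the F1 head. UQCRC1, UQCRC2 and 4 subunits of complex IV were also on it. Central subunits had medians of -0.24 with siRNA 1 and -0.30 with siRNA 2, and the remaining members -0.16 and -0.36. With siRNA 2, 1 of 24 central subunits was at least 1.5-fold lower (4.17%, NDUFV2) and 15 of the 58 others (25.9%), against 10.1% of all genes. By 2-fold it was 0 of 24 and 7 of 58 (12.1%), against 2.83% of all genes. With siRNA 1 it was 2 of 24 (8.33%) and 2 of 58 (3.45%) at 1.5-fold, against 5.47% of all genes. The difference between these lists was not tested.

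Genes that build, import or control the complexes were described by lists. Assembly factors (60 measured) had medians of -0.23 and -0.23, and 33 of them (55.0%, against 29.4% of all genes) were lower than the control with both siRNAs. At least 1.5-fold lower with both were 3 assembly factors (5.00%, against 1.47%). NDUFAF8, a complex I assembly factor, had 35.0 FPKM with siRNA 1 and 35.4 FPKM with siRNA 2, against 63.6 FPKM in the control. CMC2, a protein needed for complex IV, had 21.8 and 19.5 FPKM, against 37.7 FPKM in the control, and COA3, which acts at the translation of the mitochondrial subunit COX1, had 7.40 and 6.72 FPKM, against 12.01 FPKM in the control. At least 1.5-fold higher with both was 1 (1.67%, against 3.19%), SCO1, which delivers copper to complex IV, with 29.6 and 33.2 FPKM, against 17.6 FPKM in the control. None of the 4 passed limma with Benjamini-Hochberg adjustment. By complex, the median ratios of assembly factors with siRNA 2 ran from -0.49 (complex II, 4 genes) to 0.11 (complex V, 4 genes).
Mitochondrial ribosomal proteins (78 genes), which make the subunits of the mitochondrial genome, had medians of -0.27 and -0.22, and 59 of them (75.6%, against 29.4% of all genes) were lower with both siRNAs. Import proteins (17) stood at -0.19 and -0.22 and enzymes of the tricarboxylic acid cycle (16) at -0.12 and -0.16. None of these 3 lists had a gene 1.5-fold away in the same direction with both. Cytosolic ribosomal proteins (77 of 81 measured), which are also short and abundant, had medians of -0.18 with siRNA 1 and 0.23 with siRNA 2. With siRNA 2, 4 of the 77 (5.19%) were below the control, where 71 of the 82 members (86.6%) and 46% of all genes were.
Regulators of mitochondrial genes (17 of 18 measured) had medians of -0.20 and -0.03, with 0 genes 1.5-fold away in the same direction with both. TEFM, the mitochondrial transcription elongation factor, had 7.56 and 4.74 FPKM, against 8.87 FPKM in the control, and TWNK, the mitochondrial DNA helicase, 16.9 and 18.5 FPKM, against 24.4 FPKM in the control. NRF1 was level at 5.32 and 5.32 FPKM, against 5.26 FPKM in the control, and GABPA at 8.23 and 9.39 FPKM, against 8.99 FPKM. TFAM, which packages mitochondrial DNA, had 36.2 and 45.8 FPKM, against 38.0 FPKM in the control. NRF1, GABPA and TFAM were picked as known regulators after the lists were measured. Of the subunits and carriers that the name rule does not match, CYCS (cytochrome c) had 214 FPKM with siRNA 1 and 156 FPKM with siRNA 2, against 134 FPKM in the control (0.67 and 0.21), and NDUFAB1, the acyl carrier subunit of complex I, had 70.6 and 66.0 FPKM, against 85.2 FPKM in the control.
The 13 subunits of the mitochondrial genome had another pattern. With siRNA 1 11 of them were above the control and the median was 0.08, and with siRNA 2 all 13 were below it and the median was -0.57. The shares below the control were 15.4% with siRNA 1 (53.4% of all genes) and 100% with siRNA 2 (46% of all genes). MT-CO1, the catalytic subunit of complex IV, had 19776 FPKM with siRNA 1 and 12100 FPKM with siRNA 2, against 18826 FPKM in the control. Transcripts of that chromosome take 15.1% and 10.2% of bases with the siRNAs, against 14.0% in the control, so their level also moves the scale of every other gene. With scaling to genes outside the mitochondrial chromosome, the members' count lower with both siRNAs was 67.

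**Figure D4:**
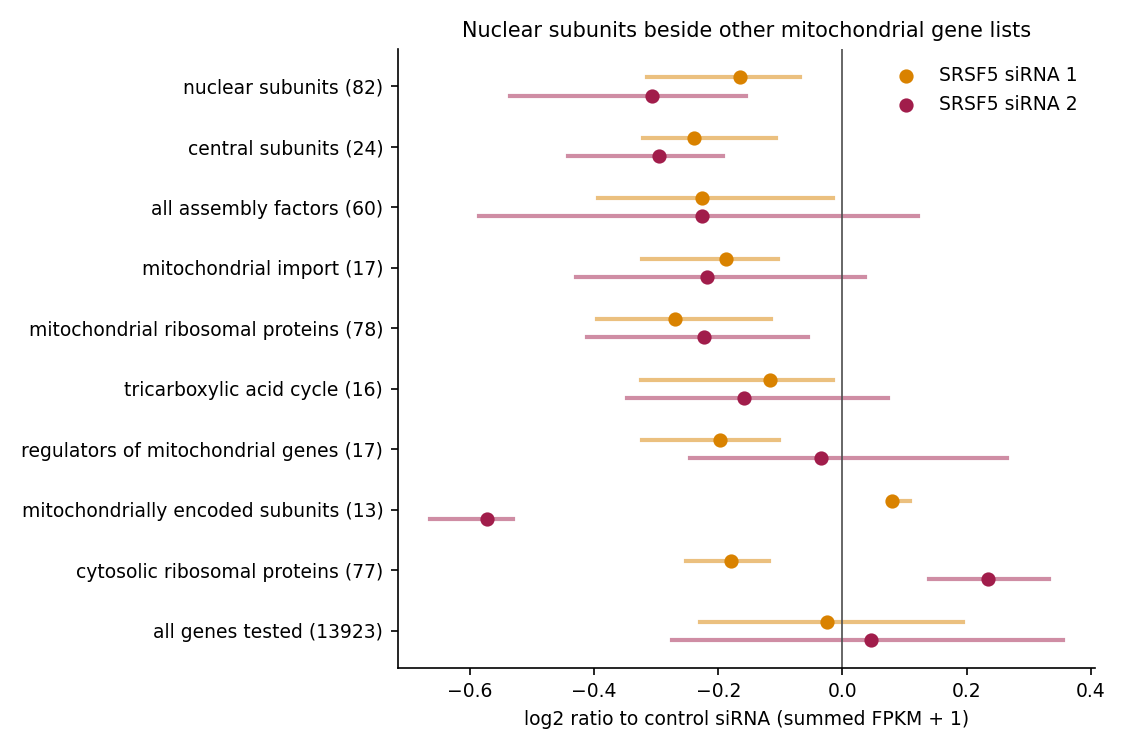
Median (point) and middle 50% (line) of the log2 ratio to the control of summed FPKM (+ 1) for siRNA 1 and siRNA 2, for the nuclear subunits, their central subunits, 7 related lists and all genes tested, with the number of genes in brackets. Nuclear subunits lie below 0 with both siRNAs (-0.16 and -0.31), mitochondrially encoded subunits only with siRNA 2 (-0.57), and cytosolic ribosomal proteins above 0 with siRNA 2 (0.23).

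Members have short transcripts and high levels, so both properties were compared with other genes. In coding transcripts of up to 500 bases the 5 members had a median of -0.56 with siRNA 2 and 75 other genes 0.17. In the next class, up to 1000 bases, 30 members stood at -0.41 and 552 other genes at -0.04, and in that up to 2000 bases 23 members stood at -0.32 and 2022 other genes at -0.01. In the 2 longer classes the members were at -0.29 and -0.29 and the other genes at 0.01 and 0.05. With siRNA 1 the members lay below the other genes in each class too, from -0.15 against -0.13 in the class up to 1000 bases to -0.30 against -0.07 at up to 500 bases. By level, members with a mean above 100 FPKM (36 genes) had a median of -0.32 with siRNA 2 and the 1166 other genes of that level 0.05. From 30 to 100 FPKM 30 members stood at -0.31 and other genes at 0.01. Members below 10 FPKM (4 genes) were at 0.02.

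**Figure D5:**
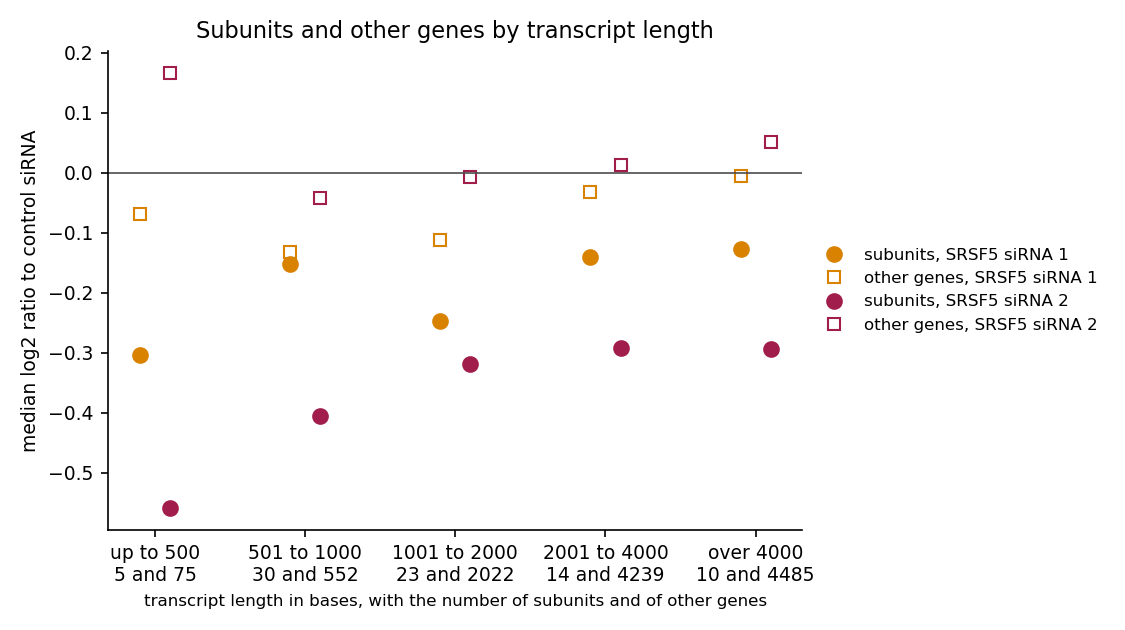
Median log2 ratio to the control of summed FPKM (+ 1) for members (filled) and other genes (open) with siRNA 1 and siRNA 2, in 5 classes of the length of the coding transcript with the most bases. Members lie below other genes in each class, by the largest margin with siRNA 2 at up to 500 bases (-0.56 and 0.17), where there are 5 members.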

How the data were processed

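RNA of 3 HaCaT libraries was made into cDNA with a SMARTER mRNA kit, per the labels' protocols. The values deposited by the authors are FPKM per transcript, per the file headers. No source used here names the aligner or the counter. Genome builds in the submitters' processing notes are GRCh38 p12, mm10 and GRCm38, with no role stated, and coordinates are printed as the files list them. Every FPKM times length was a whole multiple of 1 step (100% of values, tolerance 0.05), with totals of 4126967673 to 4458622346 base overlaps, so bases rather than whole reads were counted.

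Of 247012 transcripts, 226669 on chromosomes were kept and summed per gene. Medians and counts past 1.5-fold and 2-fold have no p-value, since each transfection is 1 library. Log2(FPKM + 1) of 13923 genes was tested with limma 3.58.1 (R 4.3.3, trend), both SRSF5 siRNAs against the lone control, which is assumed to vary like them, with Benjamini-Hochberg adjustment and 1 residual degree of freedom. Nothing says that the libraries came from separate cultures, so its p-values reflect only how these samples differ, in part perhaps technically. Counting errors come from read equivalents and cover counting error only. Scripts were tested on simulated data.

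Members and lists were chosen with earlier results of these data known. Named were the lowest and highest 2 members of each complex, those 2-fold away with either siRNA, the 5 that differed most between siRNAs, the central subunits and paralog pairs, and list genes 1.5-fold away with both siRNAs or else the 2 furthest. Other genes were named where they make up a count of few genes. Some values named by this rule are not reported here. Genes that match the names without a coding transcript (150, of which 9 reached 1 FPKM) were left out, and held at most 0.888% of the members' FPKM. Alternatives were the pseudocount, the level minimum, coding transcripts only, other scaling and leaving out each siRNA.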

Additional observations from a re-analysis of the deposited data

How the results depend on the processing

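Of 237 values and counts of members or complexes under the alternatives 215 stayed within a tolerance (1.5 times for a count, the SD between the siRNAs for a median) and 22 moved. With no level minimum, complex IV took in its 5 genes near 0 and its medians were -0.080 (siRNA 1), -0.22 (siRNA 2) and -0.0093 (siRNA 2 over siRNA 1); COX6B2 then made 1 member at least 1.5-fold higher with siRNA 2, over the control and over siRNA 1, and limma called 1 member, COX7B2 (Benjamini-Hochberg adjusted p = 0.0069), at 0.17 read equivalents or less, and 1343 of 60506 genes. A pseudocount of 0.1 FPKM made 1 member, NDUFA4L2, 1.5-fold higher with siRNA 2 than with siRNA 1. With the coding transcript of most bases alone, the siRNA 2 medians of complexes III and V were -0.17 and -0.28, the complex III median of siRNA 2 over siRNA 1 changed sign, to 0.0087 in place of -0.11, 2 members were 1.5-fold lower with siRNA 1, and 6 were lower with siRNA 2 than with siRNA 1. With all medians set to 0, complexes III and V had -0.18 and -0.22 for siRNA 2 over siRNA 1, and complex II -0.017 in place of 0.053. Scaled to genes outside the mitochondrial chromosome, complex II had -0.026, complexes III and V -0.19 and -0.23, and III and V -0.36 and -0.39 for siRNA 2 over the control. Under either scaling 1 member was 1.5-fold lower with both siRNAs. When either siRNA was left out, the count lower in those that remained was 4 to 16 (4 without siRNA 2, 16 without siRNA 1). The cause was not tested. Leaving out the readthrough genes and UQCRHL, or moving NDUFA4 to complex IV, both chosen after seeing the data, moved none. Members lower with both siRNAs numbered 65 to 68 under the settings of pseudocount, level, transcripts and scaling. limma without an siRNA library has no residual degrees of freedom and was not run. No paired analysis was possible because the labels give no replicate numbers and each transfection has 1 library. Genes under about 100 read equivalents, such as NDUFA7, carry counting errors above 0.20 on the log2 scale.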

Other observations

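Some genes of the related lists were also low with siRNA 2. They are named because they passed 2-fold, and so after their values were seen. At least 2-fold lower with siRNA 2 were 2 of 17 import proteins (11.8%), 1 of 60 assembly factors (1.67%) and 3 of 78 mitochondrial ribosomal proteins (3.85%). Over all genes the share was 2.83%, so assembly factors and mitochondrial ribosomal proteins were below or near it. Of 16 enzymes of the tricarboxylic acid cycle and 17 regulators it was 0. TOMM20, the receptor of the outer membrane that binds proteins for import, had 87.8 FPKM with siRNA 1 and 25.7 FPKM with siRNA 2, against 97.9 FPKM in the control (log2 ratios -0.16 and -1.89). TIMM8B, a small chaperone of the intermembrane space, had 32.7 and 12.8 FPKM, against 39.0 FPKM in the control (-0.25 and -1.54). COX17, which carries copper toward complex IV, had 71.1 and 38.2 FPKM, against 95.3 FPKM in the control (-0.42 and -1.30). Of the mitochondrial ribosomal proteins MRPL15, MRPL50 and MRPL24 were past 2-fold, with ratios of -1.23, -1.06 and -1.02 with siRNA 2 and -0.40, -0.41 and -0.27 with siRNA 1. Counting errors with siRNA 2 ran from 0.04 for MRPL50 to 0.15 for COX17 and TIMM8B.

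COA7, a factor for complex IV, was the 1 gene of these lists past 2-fold with siRNA 1, with 10.2 FPKM with siRNA 1 and 23.4 FPKM with siRNA 2, against 21.9 FPKM in the control. Its ratios of -1.04 and 0.09 set the siRNA 1 library apart from the other libraries. Each of these values rests on 1 library per siRNA, and no difference was tested.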
